A study of Mus musculus with 6 samples.

Results

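The CD28 family and the B7 family ligands are surface proteins through which T cells receive costimulatory and inhibitory signals. The 10 genes described here, of 21358 entries in the deposited expression table, were chosen by name: the receptor genes *Cd28* and *Icos*, and *Icosl*, *Cd80*, *Cd86*, *Cd274*, *Pdcd1lg2*, *Cd276*, *Tnfrsf14* and *Pvr*, which encode ligands of this or of neighbouring pathways. All 10 had a mean FPKM of at least 0.1 and entered the test. RNA was sequenced from whole tumors of B16-F10, a murine melanoma line, grown in female C57BL/6 mice aged 6 to 8 weeks. Every mouse of both groups received 500 cGy of total body irradiation and then adoptive cell transfer (ACT) of 2000000 peptide-activated pmel-1 splenocytes, Thy1.1+ cells with a transgenic TCR specific for the melanocyte antigen gp100, once its tumor measured at least 150 mm3. One group (ACT + IL-2, 3 tumors) was given IL-2 at 0.4 mg/kg intraperitoneally on consecutive days of each cycle, and the other (ACT + NKTR-214, 3 tumors) was given NKTR-214, a pegylated IL-2, at 0.8 mg/kg intravenously once per cycle. Cycles started 9 days apart and tumors were taken at day 12, so the drugs differed in dose, route and schedule as well as in the molecule. The model has a transferred population with 1 TCR specificity in an irradiated host that keeps part of its own immune cells, and the RNA of all tumor, stromal and immune cells was mixed. In such bulk RNA, fewer cells of a type and less RNA per cell cannot be told apart.

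A T cell is fully activated when its antigen receptor and CD28 are engaged together. CD28 binds CD80 and CD86 on antigen-presenting cells, CTLA4 competes for the same ligands and restrains the response, and ICOS, induced after activation, binds ICOSL. PD-1 (gene *Pdcd1*) is an inhibitory receptor for PD-L1 (*Cd274*) and PD-L2 (*Pdcd1lg2*). HVEM (*Tnfrsf14*) binds BTLA, CD160 and LIGHT, the nectin-like protein CD155 (*Pvr*) binds the activating receptor CD226 and the receptors TIGIT and CD96, and the receptor of B7-H3 (*Cd276*) is not settled.

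Promoter sequence is shown for the 2 ligands of PD-1, which lie next to each other on chromosome 19 and differed in fold change, and for *Cd80*, whose window held a searched motif. These are the RefSeq bases before the start site on GRCm38, plus strand, without annotated exons. Capitals in the *Cd80* sequence mark the only match to the AP-1 motif TGANTCA. All were free of the STAT motif TTCNNNGAA, an IRF motif (GAAA, any 2 bases, GAAA) and a kB motif (GGGA, any 3 bases, TCC) in the bases searched on both strands. Other spellings of these motifs were not searched, so sites that differ from these letters may be present.
Cd80 chr16:38458683-38458932: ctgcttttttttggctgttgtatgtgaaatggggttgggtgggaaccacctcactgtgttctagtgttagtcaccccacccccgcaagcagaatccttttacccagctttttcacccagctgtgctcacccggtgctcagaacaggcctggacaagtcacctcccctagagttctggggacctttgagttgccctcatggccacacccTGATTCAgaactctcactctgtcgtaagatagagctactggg
Cd274 chr19:29367391-29367437: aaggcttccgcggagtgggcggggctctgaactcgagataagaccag
Pdcd1lg2 chr19:29410669-29410918: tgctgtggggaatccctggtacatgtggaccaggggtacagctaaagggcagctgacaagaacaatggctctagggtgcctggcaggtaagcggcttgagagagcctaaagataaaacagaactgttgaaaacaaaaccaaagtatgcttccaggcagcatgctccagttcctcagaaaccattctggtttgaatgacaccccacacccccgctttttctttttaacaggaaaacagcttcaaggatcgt
RefSeq windows were found for 6 of the 10 genes (*Icosl*, *Cd80*, *Cd274*, *Pdcd1lg2*, *Cd276* and *Tnfrsf14*). The AP-1 motif was present in 6.75% of 32851 promoter windows of the same length, the STAT motif in 7.02%, the IRF motif in 2.98% and the kB motif in 3.86%. *Tnfrsf14* held 1 IRF match, TTTCATTTTC at chr4:154928132-154928141, 64 bases before the start that RefSeq gives this window. GENCODE starts the gene further upstream, so the match lies inside its GENCODE span, in a window that also holds *Tnfrsf14* exon sequence. The *Cd80* window likewise lies inside the GENCODE span of its gene, outside exons. A letter match describes the sequence and was not tested as a binding site.

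Expression is given as FPKM, reads scaled to exon length and to the mapped reads of the library. A comparison of levels between genes depends on the gene lengths used, which are not stated. The test was limma on log2(FPKM + 1), with Benjamini-Hochberg adjustment over 14172 genes. Differences are ACT + NKTR-214 minus ACT + IL-2, and adding 1 makes the fold of a low gene look smaller than it is. Steps of 1 read could be seen in the deposited values and put the library depths within 0.877 to 1.03 of that of ACT + IL-2 replicate 1, or about 20900000 to 24600000 mapped reads. ACT + IL-2 replicate 2 stood apart in its summed FPKM weighted by gene length, 78.5% of the value of replicate 1 against 91 to 100% in the other libraries, so values without it are given where they change a call or a count. Melanoma markers were detected in every tumor, with summed levels of 5413 to 6933 FPKM in ACT + IL-2 and 2664 to 3763 in ACT + NKTR-214. Fold changes were positive in 55.7% of all genes tested, and the median was 0.05.

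Of the 10 genes, 8 were higher in ACT + NKTR-214 (adjusted p under 0.05), where 20.7% of all genes tested were higher, and 0 were lower, where 8.28% of all genes were lower. That share depends on the scaling, since 1173 genes were lower with FPKM as deposited, 3501 with 75th percentile scaling, 4525 with quantile normalization and 635 (without ACT + IL-2 replicate 3) to 2003 (without ACT + IL-2 replicate 2) when 1 tumor was left out. No gene of the 10 was lower at an unadjusted p under 0.05 either. The median log2 fold change of the 10 was 1.24. In the same 8 genes each ACT + NKTR-214 tumor lay above each ACT + IL-2 tumor, which held for 27.1% of all genes, and the reverse, held by 15.3% of all genes, was seen in none of the 10. *Cd276* and *Pvr* were the exceptions. The limma test shares variance across genes. When the variance of each gene was used alone, only *Pdcd1lg2* stayed past the threshold (adjusted p = 0.0227), while all 8 had an unadjusted p under 0.05.

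*Cd28* (chr1:60716800-60773359, plus strand) encodes the costimulatory receptor of resting and activated T cells. Its level was 0.817, 0.375 and 0.3995 FPKM in the ACT + IL-2 tumors and 11.5, 12.2 and 5.06 FPKM in the ACT + NKTR-214 tumors. The groups did not overlap, and the lowest ACT + NKTR-214 tumor, replicate 3, was still above every ACT + IL-2 tumor. The means were 0.531 ± 0.249 and 9.61 ± 3.95 FPKM (SD, n = 3 each), an 18.1-fold ratio, and the log2 fold change was 2.72 (SE 0.24, adjusted p = 7.39e-07, limma). *Icos* (chr1:60977927-61000320, plus strand), the inducible costimulator, lies on the same strand beyond *Ctla4*, the 1 coding gene between them. Its level was 0.490, 0.269 and 0.0588 FPKM in ACT + IL-2 and 5.45, 5.33 and 2.67 FPKM in ACT + NKTR-214. ACT + NKTR-214 replicate 3 was again the lowest of its group, and the ACT + IL-2 replicate 3 value stood for only about 4 reads. The means were 0.273 ± 0.216 and 4.48 ± 1.57 FPKM, 16.4-fold apart, with a log2 fold change of 2.07 (SE 0.20, adjusted p = 1.40e-06, limma). All 7 T cell markers (*Cd3d*, *Cd3e*, *Cd3g*, *Cd2*, *Cd5*, *Cd6* and *Cd247*) moved with both receptors, and none was at 0. Their summed level was 10.01 to 22.6 FPKM in ACT + IL-2 and 107 to 235 FPKM in ACT + NKTR-214, and the median log2 fold change of the 7 was 3.37. The CD8 genes *Cd8a* and *Cd8b1* summed to 3.31 to 8.21 and 45.1 to 99.6 FPKM. The 3 genes listed for CD4 cells summed to 2.33 to 3.32 and 3.09 to 4.28 FPKM, with 2 of 3 higher and *Foxp3* at a log2 fold change of -0.00. The part of these cell markers in the result was not tested beyond the comparison with their mean given further on.

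**Figure D1:**
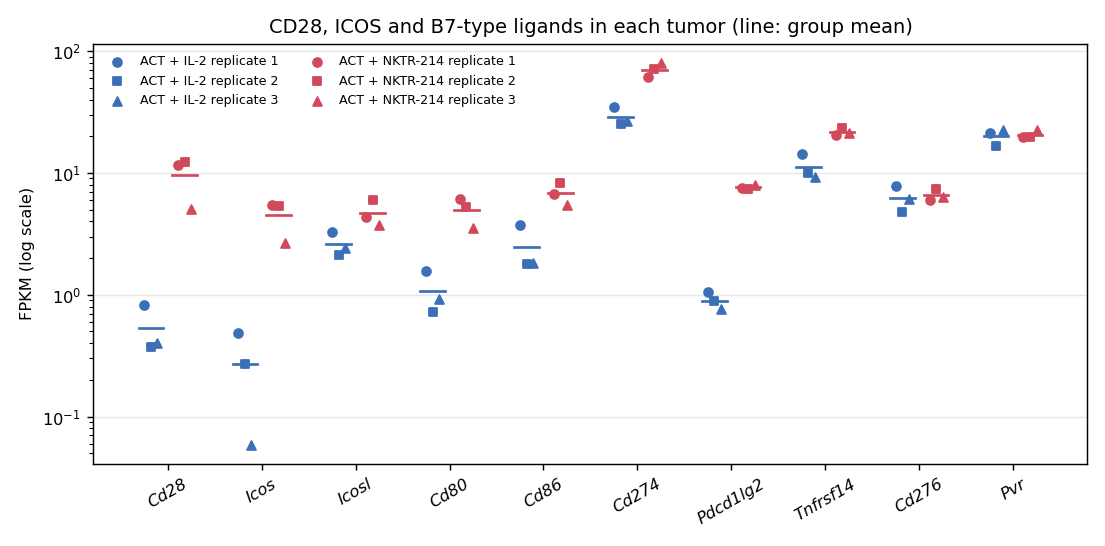
FPKM (log axis) of the 10 genes in each of the 6 tumors, blue for ACT + IL-2 and red for ACT + NKTR-214, with symbols for the replicate and a line at the group mean. *Cd28* and *Icos* are under 1 FPKM in every blue tumor and above 2 in every red one, while the colors are mixed for *Cd276* and *Pvr*.

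Of the B7 ligands, *Cd80* (chr16:38455561-38496335, plus strand) and *Cd86* (chr16:36603869-36666081, minus strand), carried by dendritic cells, macrophages and activated B cells, both rose. *Cd80* was at 1.58, 0.719 and 0.928 FPKM in ACT + IL-2 and at 6.05, 5.24 and 3.54 FPKM in ACT + NKTR-214. The groups were well apart, with replicate 3 the lowest of ACT + NKTR-214. The means were 1.08 ± 0.448 and 4.94 ± 1.28 FPKM, a 4.60-fold ratio, and the log2 fold change was 1.52 (SE 0.19, adjusted p = 1.82e-05, limma). *Cd86* was at 3.75, 1.77 and 1.83 FPKM and at 6.76, 8.32 and 5.44 FPKM. Its groups were closer, with ACT + IL-2 replicate 1 well above its own group and nearest to ACT + NKTR-214 replicate 3. The means were 2.45 ± 1.12 and 6.84 ± 1.44 FPKM, a 2.79-fold ratio, with a log2 fold change of 1.22 (SE 0.21, adjusted p = 0.000361, limma).

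*Icosl* (chr10:78069302-78083913, plus strand), the ligand of ICOS, was at 3.27, 2.11 and 2.42 FPKM in ACT + IL-2 and at 4.35, 5.94 and 3.74 FPKM in ACT + NKTR-214. This was the smallest of the 8 increases, and the nearest tumors of the groups almost met. The means were 2.60 ± 0.596 and 4.68 ± 1.14 FPKM, 1.80-fold apart, with a log2 fold change of 0.65 (SE 0.18, 95% interval 0.27 to 1.03, adjusted p = 0.0114, limma). The call was lost when replicate 2 of ACT + IL-2 was left out (adjusted p = 0.0746), when replicate 2 of ACT + NKTR-214 was left out (0.0605) and when the minimum FPKM was dropped (0.0542 over 17113 genes, limma), and the estimate stayed positive in each of these.

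Both PD-1 ligands rose, by unequal amounts. *Cd274* (chr19:29367455-29388095, plus strand), which encodes the widely expressed, interferon-inducible PD-L1, had the highest level of the 10 genes in every tumor. It was at 34.7, 25.4 and 26.6 FPKM in ACT + IL-2 and at 61.1, 70.7 and 79.7 FPKM in ACT + NKTR-214. Here replicate 3 was the highest ACT + NKTR-214 tumor, unlike for the receptors. The means were 28.9 ± 5.06 and 70.5 ± 9.28 FPKM, 2.44-fold apart, and the log2 fold change was 1.26 (SE 0.16, adjusted p = 2.95e-05, limma). Of its exon bases, 14.1% lie under *AC119228.1* on the other strand, and as strand-specific counting is not stated, reads of the pair cannot be told apart there. *Pdcd1lg2* (chr19:29410919-29471161, plus strand), for PD-L2, typical of dendritic cells and macrophages, lies 22.8 kb from it with no coding gene between. Its level was 1.04, 0.884 and 0.757 FPKM in ACT + IL-2 and 7.51, 7.34 and 7.93 FPKM in ACT + NKTR-214. The values were tight within each group, with a gap between groups many times the spread. The means were 0.895 ± 0.144 and 7.59 ± 0.303 FPKM, 8.48-fold apart, with a log2 fold change of 2.18 (SE 0.14, adjusted p = 5.82e-08, limma).

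*Tnfrsf14* (chr4:154921933-154928563, minus strand), for HVEM of lymphoid, myeloid and epithelial cells, was at 14.2, 9.97 and 9.31 FPKM in ACT + IL-2. In ACT + NKTR-214 it was at 20.5, 23.4 and 21.4 FPKM, above every ACT + IL-2 tumor. The means were 11.2 ± 2.64 and 21.8 ± 1.48 FPKM, 1.95-fold apart, with a log2 fold change of 0.92 (SE 0.16, adjusted p = 0.000446, limma). Of its 50-base windows, 4.51% also occur in another gene.

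Markers of some cells that carry these ligands moved in the same direction, and the B cell markers did not. Over all genes tested 20.7% were called higher. All 8 macrophage and monocyte markers (*Csf1r*, *Adgre1*, *Cd68*, *Itgam*, *Fcgr1*, *Mertk*, *Lyz2* and *Ly6c2*) were higher, from a summed 208 to 566 FPKM in ACT + IL-2 to 1078 to 1964 in ACT + NKTR-214, with a median log2 fold change of 1.86. Of 7 dendritic cell markers tested, 5 were higher, and the summed level went from 7.996 to 13.2 FPKM to 20.8 to 36.0 FPKM. Of the B cell markers 0 of the 2 tested were called by limma, with 0 at an unadjusted p under 0.05, the sum was 0.890 to 2.01 against 0.960 to 1.54 FPKM, and *Pax5* was listed at 0 in all ACT + NKTR-214 tumors. Without ACT + IL-2 replicate 1, 1 B cell marker was higher. Neutrophil markers (4 of 4 higher, 4.01 to 9.26 against 21.9 to 49.4 FPKM), fibroblast markers (5 of 5, 144 to 408 against 380 to 735 FPKM), adipocyte markers (2 of 4, 21.4 to 69.4 against 36.3 to 129 FPKM), NK cell markers (2 of 4, 0.974 to 2.64 against 6.32 to 9.56 FPKM) and endothelial markers (1 of 5, 23.2 to 52.2 against 36.7 to 73.3 FPKM) also held called genes. Several of these counts rested on single tumors or on the scaling. Without ACT + IL-2 replicate 2 limma called 5 of 8 macrophage and monocyte, 1 dendritic cell, 3 neutrophil, 0 fibroblast, 0 adipocyte and 0 endothelial markers, and quantile normalization left 2 dendritic cell markers. With 75th percentile or quantile scaling 3 fibroblast and 0 adipocyte markers were called, with no minimum FPKM 1 fibroblast, 0 adipocyte and 0 endothelial markers, and with no trend 0 adipocyte markers. Without ACT + IL-2 replicate 3, 3 fibroblast and 0 adipocyte markers were called, and without ACT + NKTR-214 replicate 1, 0 adipocyte and 2 endothelial markers. Without ACT + NKTR-214 replicate 2, 3 adipocyte markers were higher, and without ACT + IL-2 replicate 1 or without ACT + NKTR-214 replicate 3, 4 adipocyte and 4 endothelial markers were. Counts of T, CD8 and NK cell markers did not change when any 1 tumor was left out, and that of CD4 markers fell to 1 without ACT + IL-2 replicate 2. The part of the myeloid and other markers in the ligand results was not tested beyond the comparison with the macrophage and monocyte mean given further on.

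*Cd276* and *Pvr*, which tumor and stromal cells commonly carry, did not pass the test. *Cd276* (chr9:58524298-58555437, minus strand), for B7-H3, was at 7.74, 4.75 and 6.11 FPKM in ACT + IL-2 and at 6.02, 7.39 and 6.31 FPKM in ACT + NKTR-214. The highest and the lowest of the 6 tumors were both in ACT + IL-2. The log2 fold change was 0.09 (SE 0.17, adjusted p = 0.743, limma), its 95% interval ran from -0.28 to 0.46, and 11.4% of its exon bases lie under *Gm10657* on the other strand. *Pvr* (chr7:19903578-19921160, minus strand) was at 21.2, 16.5 and 22.7 FPKM in ACT + IL-2 and at 19.5, 19.7 and 22.3 FPKM in ACT + NKTR-214. Again both extremes were ACT + IL-2 tumors, and the log2 fold change was 0.04 (SE 0.15, 95% interval -0.29 to 0.36, adjusted p = 0.891, limma). Both estimates turned negative under other settings, to -0.06 for *Cd276* and -0.09 for *Pvr* without ACT + IL-2 replicate 2, and neither passed the test in any of 14 alternatives. Among 7 melanoma markers, 5 were lower and 0 higher, with a median log2 fold change of -0.82. The count fell to 2 with no minimum FPKM and without ACT + IL-2 replicate 3, ACT + NKTR-214 replicate 1 or ACT + NKTR-214 replicate 2. It rose to 7 without ACT + IL-2 replicate 2, with a pseudocount of 0.1 and with a minimum FPKM of 1. The count was also 7 with 75th percentile or quantile scaling, no trend or a replicate block. With no moderation it was 0, with 7 at an unadjusted p under 0.05. In each of the 7 genes every ACT + NKTR-214 tumor lay below every ACT + IL-2 tumor. The part of this change in the 2 results was not tested beyond the comparison given further on.

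**Figure D2:**
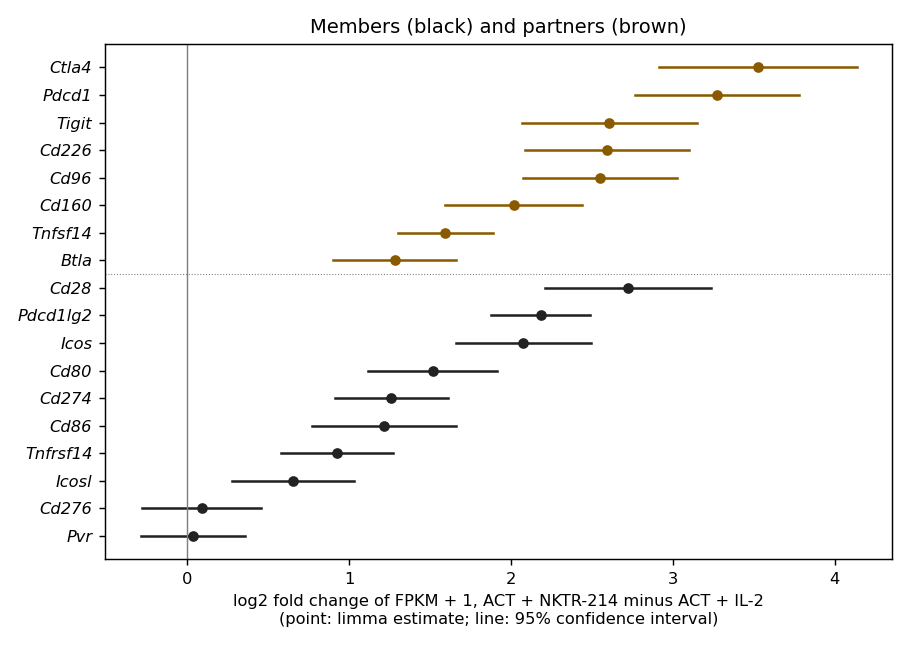
Log2 fold change of FPKM + 1 with its 95% confidence interval from limma for the 10 genes (black) and 8 partner genes (brown), largest at the top of each block. Every interval lies to the right of 0 except those of *Cd276* and *Pvr*.

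The order of the 10 levels differed between the groups. In ACT + IL-2 the means ran from *Cd274* (28.9 FPKM) over *Pvr* (20.1), *Tnfrsf14* (11.2), *Cd276* (6.20), *Icosl* (2.60), *Cd86* (2.45), *Cd80* (1.08), *Pdcd1lg2* (0.895) and *Cd28* (0.531) to *Icos* (0.273). Neighbours in this order whose tumor values overlapped were *Icosl* and *Cd86*, *Cd80* and *Pdcd1lg2*, *Pdcd1lg2* and *Cd28*, and *Cd28* and *Icos*. In ACT + NKTR-214 the means ran from *Cd274* (70.5 FPKM) over *Tnfrsf14* (21.8), *Pvr* (20.5), *Cd28* (9.61), *Pdcd1lg2* (7.59), *Cd86* (6.84), *Cd276* (6.57), *Cd80* (4.94) and *Icosl* (4.68) to *Icos* (4.48). There *Cd274* lay clear above *Tnfrsf14* and *Pvr* clear above *Cd28*, and every other gene overlapped the next in its tumor values. Summed over the 10 genes, the level was 62.8 to 88.8 FPKM in ACT + IL-2 and 149 to 166 FPKM in ACT + NKTR-214.

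The tumors of a group did not vary alike over the genes. ACT + IL-2 replicate 1 was the highest of its group in 9 of the 10, with *Pvr* the exception, and replicate 2 was the lowest in 7. ACT + NKTR-214 replicate 3 was the lowest of its group in 5 genes (*Cd28*, *Icos*, *Icosl*, *Cd80* and *Cd86*) and the highest in 3 (*Cd274*, *Pdcd1lg2* and *Pvr*). The same tumor had the lowest level of all 8 partner genes in its group.

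The partner genes encode the receptors and ligands that bind or compete with these proteins. Of these, 8 of 8 were higher in ACT + NKTR-214, where 20.7% of all genes tested were, with a median log2 fold change of 2.57. Their summed level was 4.65 to 9.53 FPKM in ACT + IL-2 and 52.1 to 111 FPKM in ACT + NKTR-214. None overlapped between groups, where 27.1% of all genes lay apart in this direction. *Ctla4*, the inhibitory competitor of CD28, was at 1.09, 0.565 and 0.4704 FPKM in ACT + IL-2 and at 25.1, 26.3 and 9.27 FPKM in ACT + NKTR-214 (log2 fold change 3.53, adjusted p = 3.40e-07, limma). *Pdcd1* was at 3.11, 1.54 and 1.26 FPKM and at 35.4, 29.0 and 18.4 FPKM (3.27, adjusted p = 1.14e-07, limma). On this scale these were the largest changes of the 18 genes, but as a ratio of group means *Pdcd1* (14.0-fold) came after *Ctla4* (28.6-fold), *Cd28*, *Cd226*, *Icos* and *Cd96*. Among the receptors of CD155, the inhibitory *Tigit* was at 1.91, 1.31 and 1.04 FPKM and at 19.0, 17.1 and 7.60 FPKM (2.61, adjusted p = 1.85e-06, limma). The activating *Cd226* was at 0.742, 0.492 and 0.231 FPKM and at 9.66, 11.005 and 4.45 FPKM (2.59, adjusted p = 1.06e-06, limma). *Cd96* was at 0.823, 0.359 and 0.546 FPKM and at 9.62, 11.2 and 4.88 FPKM (2.55, adjusted p = 6.89e-07, limma). The ratios of the group means were 10.2 for *Tigit*, 17.2 for *Cd226* and 14.9 for *Cd96*, while *Pvr* did not pass the test.

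Among the genes for proteins that bind HVEM, *Cd160*, a receptor of NK and CD8 T cells, was at 0.524, 0.546 and 0.308 FPKM in ACT + IL-2 and at 5.57, 6.76 and 2.998 FPKM in ACT + NKTR-214 (log2 fold change 2.02, adjusted p = 1.96e-06, limma). *Tnfsf14*, for the cytokine LIGHT, was at 0.561, 0.421 and 0.359 FPKM and at 3.47, 3.98 and 2.73 FPKM (1.59, adjusted p = 6.12e-07, limma). *Btla*, an inhibitory receptor of B and T cells, was at 0.778, 0.4595 and 0.429 FPKM and at 3.33, 3.58 and 1.68 FPKM (1.28, adjusted p = 5.89e-05, limma), the smallest change of the 8.

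**Figure D3:**
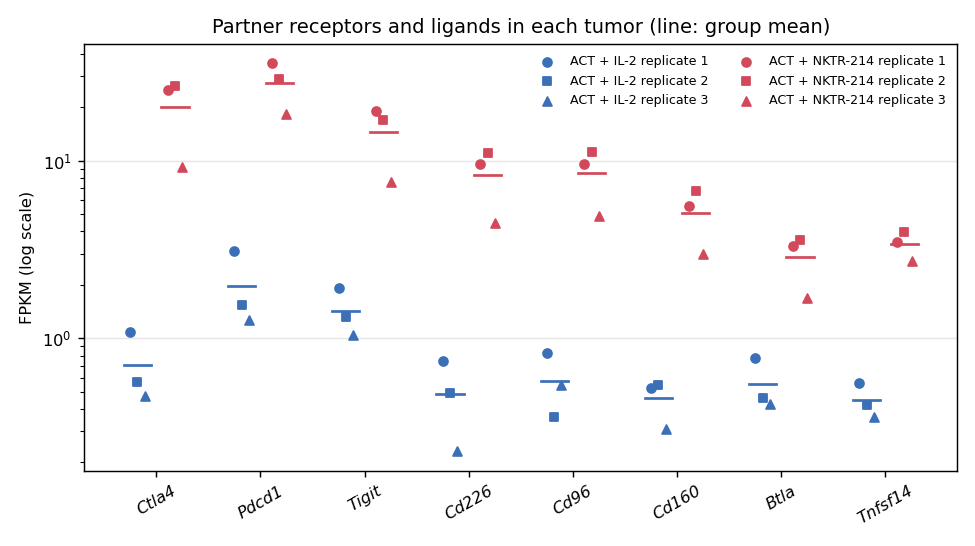
FPKM (log axis) of the 8 partner genes in each tumor, with the symbols and lines of the plot of the 10 genes. All red symbols lie above all blue ones for each gene, and the red triangle, ACT + NKTR-214 replicate 3, is the lowest red symbol throughout.

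Ratios of FPKM within a tumor set the members of a pair against each other. *Cd28* over *Ctla4* was 0.753, 0.663 and 0.849 in ACT + IL-2 and 0.459, 0.464 and 0.546 in ACT + NKTR-214. By FPKM *Ctla4* was the higher of the 2 everywhere and by more after NKTR-214. In approximate reads *Cd28* was the higher in every tumor, as in replicate 1 of ACT + IL-2 (119 against 60) and of ACT + NKTR-214 (1739 against 1442). The order of these 2 genes therefore rests on the gene lengths. *Icos* over *Icosl* was 0.15, 0.127 and 0.0243 and then 1.25, 0.896 and 0.713. *Cd86* over *Cd80* was 2.37, 2.46 and 1.97 and then 1.12, 1.59 and 1.54, with *Cd86* the higher throughout. *Cd274* over *Pdcd1lg2* was 33.2, 28.8 and 35.1 in ACT + IL-2 and 8.14, 9.63 and 10.1 in ACT + NKTR-214. *Pdcd1* over *Cd274* was 0.0895, 0.0605 and 0.0475 and then 0.579, 0.411 and 0.231. *Pdcd1* over *Pdcd1lg2* was 2.97, 1.74 and 1.67 and then 4.72, 3.96 and 2.33, and these ranges overlapped. *Tigit* over *Cd226* was 2.58, 2.67 and 4.51 and then 1.97, 1.55 and 1.71. *Btla* over *Tnfrsf14* was 0.0549, 0.0461 and 0.0461 and then 0.163, 0.153 and 0.0785.

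Tests of the 8 ratios used the difference of log2(FPKM + 1) between the genes and an exact two-sided permutation test over tumors, which with 3 against 3 cannot give a p below 0.1 and so cannot reach 0.05. That smallest p was reached for *Cd28* against *Ctla4* (-0.80), *Icos* against *Icosl* (1.42), *Cd274* against *Pdcd1lg2* (-0.92), *Pdcd1* against *Cd274* (2.01) and *Pdcd1* against *Pdcd1lg2* (1.09), each 0.16 after Benjamini-Hochberg adjustment over the 8 pairs. The exact p was 0.2 for *Cd86* against *Cd80* (-0.30), 0.3 for *Btla* against *Tnfrsf14* (0.36) and 0.9 for *Tigit* against *Cd226* (0.02). This split of the pairs depended on the pseudocount. Without one the groups were fully apart, with an exact p of 0.1, for *Cd86* against *Cd80* (-0.69), *Btla* against *Tnfrsf14* (1.36) and *Tigit* against *Cd226* (-0.86, a change of sign), and they overlapped for *Pdcd1* against *Pdcd1lg2* (0.78, exact p = 0.2). The other 4 pairs were fully apart on both scales, with differences of -0.62 for *Cd28* against *Ctla4*, 3.58 for *Icos* against *Icosl*, -1.80 for *Cd274* against *Pdcd1lg2* and 2.58 for *Pdcd1* against *Cd274* without a pseudocount.

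**Figure D4:**
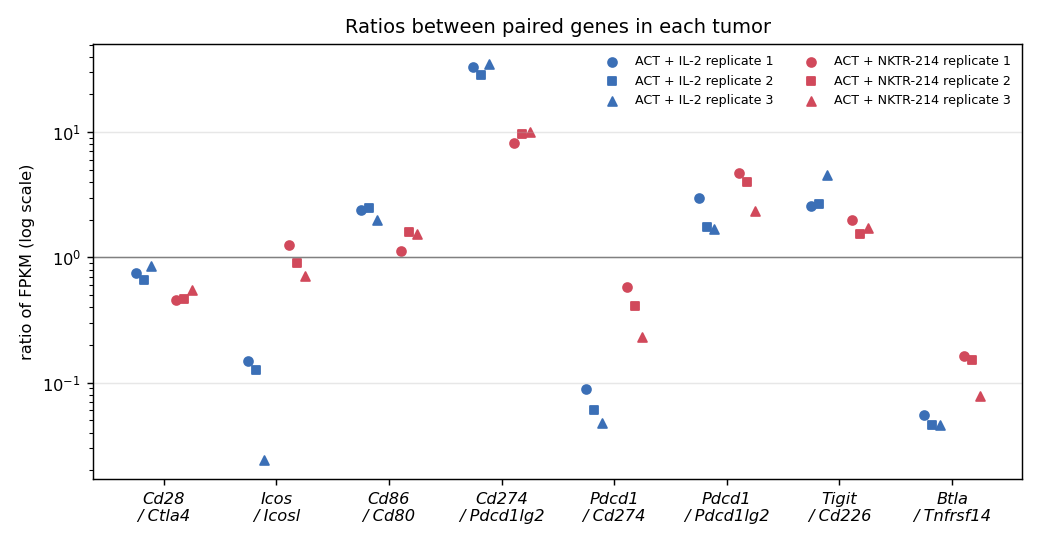
Ratio of FPKM (log axis, with a line at 1) for 8 gene pairs in each tumor, blue for ACT + IL-2 and red for ACT + NKTR-214. The *Cd274* to *Pdcd1lg2* ratio is 28.8 to 35.1 in the blue tumors and 8.14 to 10.1 in the red ones.

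Each of the 10 genes was also set against the mean log2(FPKM + 1) of markers of a cell type that carries it. The difference between groups in this balance was -0.07 for *Cd28* against the T cell markers and -0.72 for *Icos*, but the sign of both depended on the pseudocount, with 0.74 and 0.996 when none was used. Against the macrophage and monocyte markers, *Icosl* (-1.30), *Cd86* (-0.74) and *Tnfrsf14* (-1.03) rose less than the marker mean, with the same sign without a pseudocount (-1.22, -0.51 and -1.08). The balance of *Cd274* was -0.69. That of *Cd80* was -0.44 and turned to 0.18 without a pseudocount, and that of *Pdcd1lg2* was 0.23 and 1.03. Against the melanoma markers, *Cd276* moved by 1.06 and *Pvr* by 1.00, so that these genes, at nearly equal FPKM in the groups, were higher relative to the falling marker mean. The exact permutation p was 0.1, the smallest possible, for *Icos*, *Icosl*, *Cd86*, *Tnfrsf14*, *Cd276* and *Pvr* (0.167 adjusted over the 10 genes), 0.2 for *Cd80* and *Cd274*, and 0.6 for *Cd28* and *Pdcd1lg2*. Without a pseudocount the exact p became 0.1 for *Cd28* and *Pdcd1lg2* and 0.6 for *Cd80*.

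Of 10 other members of the B7, butyrophilin and nectin families, 9 were in the table and 6 were tested. Of these 2 were higher and 1 was lower, too few to set apart from the 20.7% and 8.28% of all genes, and the median log2 fold change of the 6 was 0.21. *Vsir*, for the myeloid checkpoint protein VISTA, was at 9.15, 4.17 and 2.87 FPKM in ACT + IL-2 and at 16.7, 25.5 and 13.9 FPKM in ACT + NKTR-214 (log2 fold change 1.70, adjusted p = 0.000258, limma). *Nectin1*, a cell adhesion protein and ligand of CD96, rose by 0.36 (adjusted p = 0.0345, limma), from 0.565 to 1.01 FPKM. *Nectin3*, a nectin that can bind CD155, fell by 0.75 on the log2 scale (adjusted p = 0.0013, limma), from 4.67 ± 0.352 to 2.39 ± 0.326 FPKM. The *Nectin1* call was lost when replicate 2 (adjusted p = 0.106) or 3 (0.16) of ACT + IL-2 or replicate 2 of ACT + NKTR-214 (0.13, limma) was left out.

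Of 23 genes for the signalling path below CD28, all tested, 16 were higher and 1 was lower, with a median log2 fold change of 0.77. Over all genes tested 20.7% were higher and 8.28% lower. The count of higher genes in this list fell to 12 without ACT + IL-2 replicate 2. *Lck*, the kinase that starts TCR signalling, rose from 3.79 ± 1.09 to 38.8 ± 11.9 FPKM (3.03, adjusted p = 1.03e-07, limma). It is a T cell gene and moved with the T cell markers. The smallest called increase was that of *Cdc42*, a small GTPase found in most cells (0.55, adjusted p = 0.0265, limma). *Akt1*, a kinase below PI3K, fell from 191 ± 25.4 to 133 ± 11.8 FPKM (-0.51, adjusted p = 0.0459, limma), and this call was lost in 5 of the 6 fits that left out 1 tumor, all except that without ACT + IL-2 replicate 2.

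Of 8 genes induced by costimulation, 5 were tested, with a median log2 fold change of 0.31. Of these 2 were higher, too few to set apart from the 20.7% of all genes. *Bcl2l1*, for the survival protein Bcl-xL, rose from 15.5 ± 2.45 to 30.5 ± 1.35 FPKM (0.95, adjusted p = 0.000175, limma). *Cd40lg*, for the CD40 ligand of activated T cells, was at 0.1005 FPKM in ACT + IL-2 replicate 1, listed at 0 in the other two, and at 0.453, 0.459 and 0.135 FPKM in ACT + NKTR-214 (0.38, adjusted p = 0.0117, limma), a call lost without ACT + IL-2 replicate 2 (0.0882, limma). *Il2*, *Il21* and *Il4* were under the minimum level.

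Of 16 genes known to regulate the ligands, 10 were higher and 1 was lower, where 20.7% and 8.28% of all genes tested were. The median log2 fold change of the 16 was 0.68. *Ifngr1*, a chain of the interferon gamma receptor, rose from 12.0 ± 4.01 to 65.7 ± 19.99 FPKM (2.35, adjusted p = 1.93e-06, limma). *Il4ra*, the receptor chain for IL-4 and IL-13, rose from 8.51 ± 5.31 to 31.5 ± 5.001 FPKM (1.90, adjusted p = 5.57e-05, limma), and *Stat6*, the transcription factor it activates, by 0.43 (adjusted p = 0.0431, limma). The *Stat6* call was lost with no minimum FPKM (adjusted p = 0.05996) and without replicate 3 of ACT + IL-2 (0.0790), replicate 1 of ACT + NKTR-214 (0.129) or replicate 2 of ACT + NKTR-214 (0.149, limma). *Cmtm4*, for a protein that stabilizes PD-L1, fell from 13.9 ± 2.16 to 6.30 ± 1.15 FPKM (-1.03, adjusted p = 0.000204, limma). Its relative *Cmtm6*, also known to stabilize PD-L1 and picked out after its values were seen, rose from 8.94 ± 2.65 to 18.6 ± 2.87 FPKM (1.00, adjusted p = 0.000625, limma). *Irf1* (-0.09, adjusted p = 0.724, limma), a factor that carries the interferon signal to *Cd274*, did not pass the test and was likewise picked out. From the same list *Ifng* (1.63, adjusted p = 8.29e-06), *Jak1* (0.87, adjusted p = 0.00077) and *Jak2* (0.64, adjusted p = 0.00353, limma) were higher. *Ifngr2* (0.26, adjusted p = 0.241, limma) did not pass, and these genes too were picked out after their values were seen. The part of interferon in the *Cd274* result was not tested.

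**Figure D5:**
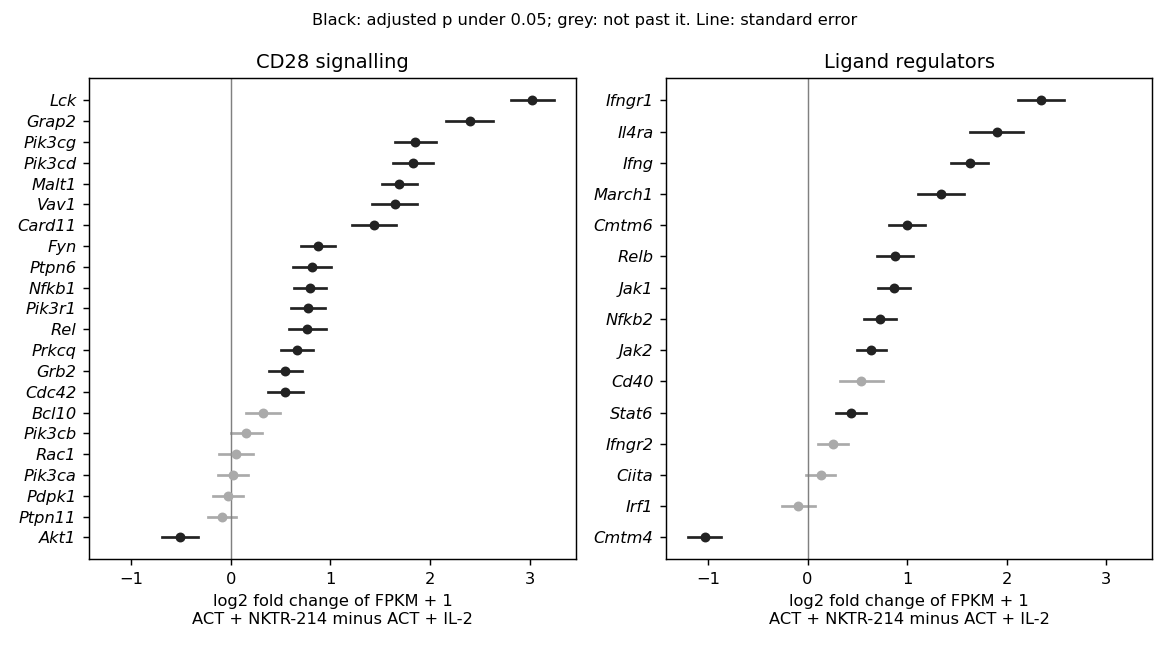
Log2 fold change of FPKM + 1 (point) with its standard error (line) for genes of the CD28 signalling list and of the list of ligand regulators, 1 gene of each left out, black where the adjusted p from limma is under 0.05. *Lck* leads the first panel, *Ifngr1* and *Il4ra* lead the second, and the called genes below 0 are *Akt1* and *Cmtm4*.

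For 4 of the genes, the 5 genes with the most alike levels over the 6 tumors were found among those with a mean FPKM of at least 1, by the root mean square difference of centred log2(FPKM + 1). For *Cd28* these were *Il18rap* (0.047), *Skap1* (0.0618), *Il18r1* (0.0745), *Adgrg5* (0.0886) and *Tigit* (0.107). For *Cd86* they were led by *Irf5* (0.0248) and *Ostf1* (0.0573), followed by *Ptpn18*, *Arrb1* and *Slc15a3*. For *Cd274* they were *Hcar2* (0.0889), *H2-Q10*, *Spsb1*, *C1ra* and *Oas3*, and for *Pvr* they were *Ndufv3* (0.0298), *Mafg*, *Lmln*, *Hspa1b* and *Zfp655*. The 6 tumors fall into 2 groups, so likeness of this kind mostly follows the difference between groups.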

How the data were processed

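RNA-seq of 6 whole tumors, 3 per group, was used. The authors mapped 50-base single-end reads to GRCm38 with HISAT2 2.0.4, used HTSeq to count them per gene, and deposited linear FPKM values. The gene lengths they used, strand settings and any filter are not given in the sources used here. All 6 columns were used. Values were taken as log2(FPKM + 1), and genes whose mean FPKM reached 0.1 were tested with limma 3.58.1 in R 4.3.3 (lmFit, eBayes with trend). P-values were adjusted by Benjamini-Hochberg, and 0.05 was the threshold. Tumors came from different mice. Relative depth was estimated from the most common ratio of low FPKM values between libraries. The number of mapped reads was then fitted to steps of 1 read in 3642 genes with few exons, using GENCODE vM21 exon lengths. At the best of many trial depths 49.7% of values lay within 0.05 of a whole read, where chance gives 10% at a single trial depth. Read numbers are therefore approximate. Differences of single values were tested with exact two-sided permutation tests. Results were recomputed with 0.1 as the pseudocount, a minimum FPKM of 1 or none, 75th percentile and quantile scaling, no trend, no moderation, a replicate block and each tumor left out. For the marker balances and pairs, no pseudocount was added after seeing the data.

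The 10 genes, the pathway and marker lists and the pairs were chosen with earlier results of these data known. The text names the 10 genes, their 8 partners, from each other pathway list the 2 called genes with the largest and the 2 with the smallest log2 fold change, and the 5 nearest genes of *Cd28*, *Cd86*, *Cd274* and *Pvr*. The ligand regulators picked out beyond this rule are marked as such where they are named. The values of some genes are not reported here. Gene positions are those of GENCODE vM21. Promoters were taken from RefSeq (GRCm38.p6), 250 bases before the start. Plots used matplotlib 3.10.9, and tables used pandas 2.3.3 and numpy 2.4.6 under Python 3.11.15.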

Additional observations from a re-analysis of the deposited data

How the results depend on the processing

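*Cd28*, *Icos*, *Cd80*, *Cd86*, *Cd274* and *Tnfrsf14* stayed past the threshold in 13 of 14 alternatives and *Pdcd1lg2* in all 14. Without moderation limma called 101 higher and 27 lower genes over the table, 1 of the 10 genes, 1 partner, 1 higher and 0 lower CD28 signalling genes, and 0 in the other B7, costimulation output and regulator lists in either direction. At an unadjusted p under 0.05 it had 8, 8, 15 higher and 1 lower, 1 higher and 1 lower, 2 higher, and 10 higher and 1 lower in these lists. The other B7 list had 1 higher gene with a pseudocount of 0.1, a minimum of 1, no minimum, 75th percentile scaling, quantile normalization or no trend. The output list had 1 with a minimum of 1 or no trend, and CD28 signalling had 0 lower with no minimum. Scaling moved the lower genes over the table to 3501 (75th percentile, 3370 higher) and 4525 (quantile, 2691 higher), so that higher calls were 49 and 37.3% of all calls, against 71.5%, and it moved the median of all genes by -0.0576 and -0.143. With 1 tumor left out, calls over the table were 2004 to 3480 higher and 635 to 2003 lower, and without ACT + IL-2 replicate 2 higher calls were 50%. The 10 genes then had 7 to 8 calls, the partners 8, the other B7 list 1 to 3 higher, CD28 signalling 12 to 16 higher and 0 to 1 lower, the outputs 1 to 3 and the regulators 9 to 11.

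Signs turned for *Cd276* (-0.0346 with quantile normalization, and -0.0630 without ACT + IL-2 replicate 2 to 0.2396 when 1 tumor was left out), *Pvr* (-0.0449 and -0.0468 with 75th percentile and quantile scaling, -0.0926 without ACT + IL-2 replicate 2, -0.02 without ACT + NKTR-214 replicate 3, up to 0.123), *Cd28* against T cell markers (0.57 with a pseudocount of 0.1, 0.74 with none, 0.0079 without ACT + IL-2 replicate 3, down to -0.183 without replicate 1), *Icos* against them (0.40 and 0.996), *Cd80* against macrophage markers (0.0800 and 0.18), *Pdcd1lg2* against them (-0.0645 without ACT + IL-2 replicate 1, up to 0.459) and *Tigit* against *Cd226* (-0.65 and -0.86, -0.0250 with quantile normalization, -0.02 without ACT + IL-2 replicate 2, -0.0785 without ACT + NKTR-214 replicate 1, up to 0.0803). Beyond what removal of samples or moderation does by construction, the cause was not tested. With the replicate number as a block, 3090 genes were higher and 1227 lower, 8 of the 10 genes among the higher. Deviations of same-numbered tumors correlated at -0.206, -0.0667 and 0.396, so the numbers do not pair the tumors. Depth limits the low genes of ACT + IL-2, such as *Icos* at about 40, 21 and 4 reads and *Tnfsf14* at about 25, 18 and 14.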

Other observations

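Skeletal muscle markers summed to 24.01 to 63.9 FPKM in ACT + IL-2 and 19.7 to 28.8 FPKM in ACT + NKTR-214, with 3 of 4 lower by limma, although the groups overlapped in all 4 genes. This count was 0 without ACT + IL-2 replicate 3 and 0 with no minimum FPKM, with 3 at an unadjusted p under 0.05 in both, and it was 1 with no trend. Of the keratinocyte markers 0 of 2 tested and of the erythroid markers 0 of 3 were called by limma, with 0 at an unadjusted p under 0.05 in either list. With no minimum FPKM 1 keratinocyte marker was higher. Without ACT + IL-2 replicate 1 limma called 1 keratinocyte and 2 erythroid markers higher, and without ACT + NKTR-214 replicate 3 it called 2 and 2.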
